A study of Mus musculus with 6 samples.

Results

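The 10 genes described here carry the insulin and glucagon signals in the hepatocyte: Insr, Grb14, Irs1, Irs2, Pik3r1, Akt2 and Foxo1 on the insulin side, and Gcgr, Prkaca and Ppargc1a on the glucagon side. They were taken as the rows of the deposited comparison table that bear one of these symbols, and their read counts were joined by Ensembl identifier. The table lists 54446 genes, and 16734 of them passed the filter on low counts. All 10 were among the genes tested, with raw counts between 222 (Ppargc1a) and 17996 (Gcgr) in a mouse.

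The transcriptome of the liver was measured by RNA-seq in 3 WT and 3 Fmo5-/- mice, 1 library per mouse. All were male and 32 weeks old. The WT mice were C57BL/6J, and the Fmo5-/- mice were generated on that background and carry a disruption of Fmo5, the gene for flavin-containing monooxygenase 5, that is not limited to 1 tissue. Both genotypes ate chow (Teklad Global Rodent Diet) without restriction and were sampled in the morning. WT and Fmo5-/- mice lived in adjacent cages, so genotype and cage cannot be told apart.

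Insulin binds its receptor, a tyrosine kinase, which phosphorylates the IRS adapters. These recruit phosphoinositide 3-kinase, whose lipid product activates AKT2, and AKT2 keeps the transcription factor FOXO1 out of the nucleus. Glucagon works the other way: its receptor raises cyclic AMP, which frees the catalytic subunit of protein kinase A to phosphorylate CREB, and CREB and the coactivator PGC-1alpha (Ppargc1a) turn on genes of glucose production. Much of this control is exerted on the proteins, by phosphorylation, and is not seen in mRNA levels. In liver, the mRNAs of Irs2 and Ppargc1a are also known to change between the fed and the fasted state.

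The sequences upstream of 4 of the genes are shown because these genes lay at the ends of the range described below: Irs1 and Irs2 varied most between mice, Prkaca was the only 1 of the 10 whose genotypes did not overlap (27.4% of all tested genes do not), and Ppargc1a had the lowest level. RefSeq (GRCm38.p6, the build of mm10) gives promoters for 9 of the 10 genes, in 14 windows. Each line is the 250 bases before the RefSeq start of transcription, 5′ to 3′ on the gene's strand, and capitals mark the motifs searched for. The windows are chr1:82291440-82291689 (minus strand) for Irs1, chr8:11008930-11009179 (minus strand) for Irs2, chr5:51567726-51567975 (minus strand) for Ppargc1a, and chr8:83972728-83972977 (plus strand) for Prkaca.
Irs1: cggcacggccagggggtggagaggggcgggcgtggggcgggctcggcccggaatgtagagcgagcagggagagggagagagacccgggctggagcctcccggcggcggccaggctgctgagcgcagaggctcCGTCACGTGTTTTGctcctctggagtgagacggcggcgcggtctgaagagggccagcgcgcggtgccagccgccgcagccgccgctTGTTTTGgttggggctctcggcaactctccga
Irs2: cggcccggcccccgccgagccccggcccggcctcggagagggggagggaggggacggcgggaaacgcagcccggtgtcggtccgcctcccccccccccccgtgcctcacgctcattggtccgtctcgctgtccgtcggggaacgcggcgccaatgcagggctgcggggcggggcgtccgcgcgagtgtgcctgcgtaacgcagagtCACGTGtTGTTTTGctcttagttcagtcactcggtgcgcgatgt
Ppargc1a: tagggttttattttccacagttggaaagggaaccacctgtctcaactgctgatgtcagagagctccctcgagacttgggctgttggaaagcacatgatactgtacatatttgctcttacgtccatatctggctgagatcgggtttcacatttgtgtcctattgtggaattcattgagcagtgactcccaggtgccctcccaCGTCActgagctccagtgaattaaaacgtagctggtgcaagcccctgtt
Prkaca: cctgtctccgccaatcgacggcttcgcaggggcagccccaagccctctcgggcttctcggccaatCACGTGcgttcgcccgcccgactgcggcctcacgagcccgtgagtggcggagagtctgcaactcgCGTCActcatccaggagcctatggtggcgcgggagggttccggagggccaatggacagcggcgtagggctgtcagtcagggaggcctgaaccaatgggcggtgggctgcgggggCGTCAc

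The motifs were the cyclic AMP response element TGACGTCA, its short form TGACG, the FOXO site GTAAACA, the insulin response core CAAAACA and the E-box CACGTG, each read on both strands. The insulin response core stood in 2 of the 14 windows, those of Irs1 (at 2 places) and Irs2, against 5.56% of 32817 promoters of the same length. In both genes, 1 copy lay at an E-box. In Irs1 the E-box at bases 115 to 110 before the start overlaps the core at bases 111 to 105 and also a short cyclic AMP element at bases 118 to 114. In Irs2 the E-box lies at bases 44 to 39 and the core at bases 37 to 31. The RefSeq start used for Irs2 lies 471 bases upstream of its start in GENCODE, the annotation used for gene positions. For the first windows of Irs1, Ppargc1a and Prkaca the 2 starts are 23, 1 and 15 bases apart. The E-box occurred in 3 windows, those of Irs1, Irs2 and Prkaca (6.02% of all promoters). The short element TGACG occurred in 6 windows of 5 genes, Irs1, Akt2, Pik3r1, Ppargc1a and Prkaca (17.7% of all promoters). Neither the full element (1.55% of all promoters) nor GTAAACA (3.16%) was found in these windows. These matches describe letters, not binding.

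Between 44886286 and 52338675 reads per mouse were counted on genes. Fmo5 itself had normalized counts of 39810, 37410 and 30240 in WT mice and of 1071, 1102 and 1194 in Fmo5-/- mice, a log2 fold change of -5.00 ± 0.14 (SE; edgeR, adjusted p = 2.79e-07). The reads left in Fmo5-/- mice came to 4.05 ± 0.23 RPKM. A normalized count is a raw count scaled to the mean library size of the 6 mice after TMM correction. The 7 hepatocyte markers found in the files summed to 113000 to 145000 CPM (counts per 1e6 counts) in WT and 113000 to 141000 CPM in Fmo5-/- mice, and of the 6 pancreatic markers Ins2, Cpa1 and Cel were at 0, Ins1 and Gcg had 2 and 5 counts over the 6 mice, and Cela1 had 10310. All 8 Kupffer cell markers had a higher mean in Fmo5-/- mice, and all 8 had an unadjusted edgeR p under 0.05. EdgeR called 1, Clec4f (log2 fold change 0.70, adjusted p = 0.0275), and DESeq2 called 7 (21.8%, 1.37% and 8.96% of all genes for these 3 measures). The call of Clec4f held in 2 of the 6 edgeR fits that left out 1 mouse (adjusted p up to 0.102). Their sum was 185 to 221 CPM in WT and 290 to 532 CPM in Fmo5-/- mice, and none of them was at 0. In whole liver, a change in the number of cells of a type and a change in RNA per cell cannot be told apart.

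Per exon length, the means of the genes over the 6 mice ran from 1.09 to 129 RPKM (reads per kilobase of merged exon per 1e6 scaled counts). Gcgr led by far, with 132 ± 4.21 RPKM in WT and 126 ± 8.32 RPKM in Fmo5-/- mice (SD, n = 3), above 97.9% of tested genes. Prkaca followed with 20.9 ± 0.696 and 17.7 ± 1.49 RPKM. Its lowest mouse lay above the highest mouse for Akt2, the next in order. Akt2, Grb14, Insr and Pik3r1 formed a middle group with means over the 6 mice of 11.7, 9.54, 9.44 and 6.49 RPKM, and the ranges of neighbours overlapped. Grb14 and Insr could not be ordered, since each was the higher in 3 of the 6 mice. Foxo1, Irs2, Irs1 and Ppargc1a formed the low group with means of 2.61, 2.55, 1.71 and 1.09 RPKM, and in all 6 mice these 4 lay below the lowest value of Pik3r1, 5.59 RPKM. Ppargc1a stood below the median tested gene, at the 38.5th percentile.

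The place of Irs1 in this order depended on how reads were counted. Irs1 shares 30.9% of its exon bases with Gm9747, a gene on the opposite strand, and reads that fall in 2 genes are dropped from the counts of both strands. The deposited strand columns, which keep such reads, summed to 2.07 times the count of both strands for Irs1. With those columns Irs1 had 3.44 ± 0.381 RPKM in WT and 3.64 ± 1.08 RPKM in Fmo5-/- mice, and Irs2 had 2.44 ± 0.517 and 2.83 ± 1.73 RPKM. Irs2 was thus the higher per length in 6 of 6 mice by the counts of both strands and in 0 of 6 by the summed strand columns. Foxo1, above Irs1 by the first count (2.61 and 1.71 RPKM), was below it in 6 of 6 mice by the second (2.82 and 3.54 RPKM). The library kit does not mark strand, so reads of Irs1 and Gm9747 in the shared bases cannot be told apart. This second way of counting was chosen after the data had been seen.

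**Figure D1:**
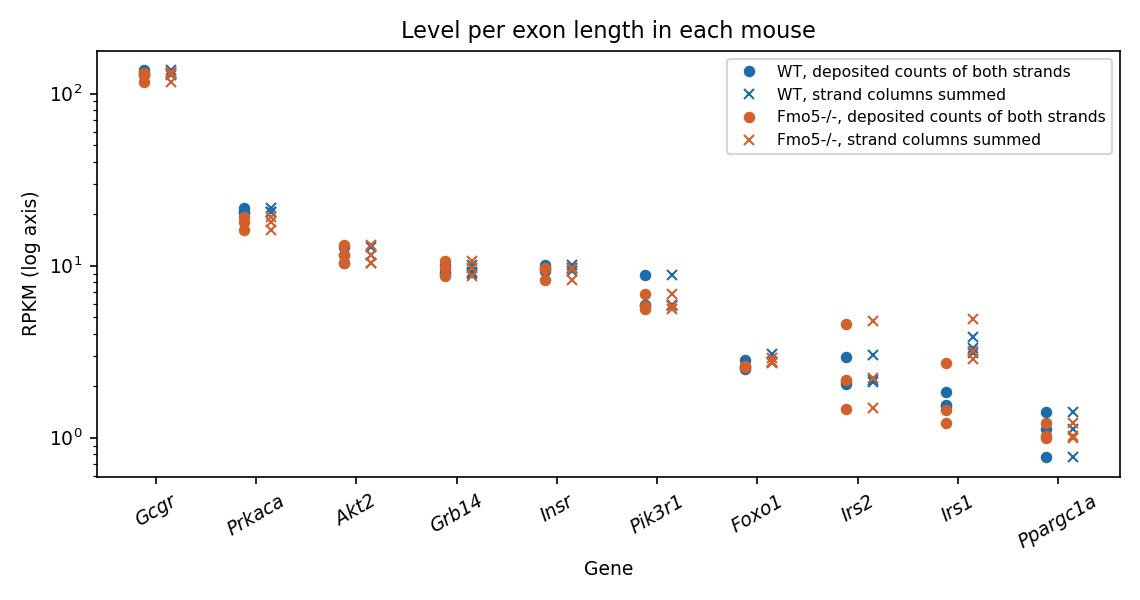
Level per exon length (RPKM, log axis) of the 10 genes in each of the 6 mice, WT in blue and Fmo5-/- in orange. Dots are the deposited counts of both strands and crosses the sum of the strand columns. The crosses lie above the dots for Irs1, with means of 3.54 and 1.71 RPKM, and close to them for the other genes.

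Insr (chr8:3122061-3279617, minus strand) encodes the insulin receptor. Normalized counts of Insr were 6517, 6756 and 6234 in WT mice and 6499, 5552 and 6450 in Fmo5-/- mice. The genotypes overlapped, and only Fmo5-/- mouse 2 lay below the WT range. The log2 fold change was -0.08 ± 0.09 (SE; edgeR adjusted p = 0.67), with a 95% interval of 0.824 to 1.09 for the fold. Grb14 (chr2:64912476-65024987, minus strand) encodes an adapter that binds the activated insulin receptor and inhibits its kinase. In WT mice Grb14 had normalized counts of 3145, 3237 and 3532, and in Fmo5-/- mice 3380, 3066 and 3705. Fmo5-/- mice 2 and 3 held both the lowest and the highest value, and the fold change had an interval of 0.886 to 1.18 (log2 0.03 ± 0.092, edgeR adjusted p = 0.869).

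Irs1 (chr1:82233101-82291416, minus strand) and Irs2 (chr8:10984681-11008458, minus strand) encode the adapters that link the receptor to phosphoinositide 3-kinase. Irs1 had normalized counts of 820.7, 688.5 and 680.9 in WT mice and 1205, 539.7 and 647 in Fmo5-/- mice. Irs2 had 635.4, 650.6 and 913 in WT mice and 1416, 663.6 and 450.6 in Fmo5-/- mice. For both genes Fmo5-/- mouse 1 was the highest of the 6 mice, while another Fmo5-/- mouse was the lowest, mouse 2 for Irs1 and mouse 3 for Irs2. The spread within Fmo5-/- mice was 44.8% of the mean for Irs1 and 60.1% for Irs2, against 10.8% and 21.3% within WT. The biological coefficient of variation that edgeR estimated over the 6 mice was 26% for Irs1 and 38.5% for Irs2, above 90.6% and 97.9% of tested genes. The other 8 genes lay at or below the 71.9th percentile of this measure.

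The genotype difference of Irs1 was 0.13 ± 0.3 (log2, SE, edgeR adjusted p = 0.853) and that of Irs2 was 0.20 ± 0.46 (adjusted p = 0.846). The intervals were wide, a fold of 0.656 to 1.82 for Irs1 and of 0.511 to 2.59 for Irs2, so differences of these sizes in either direction are not excluded by the data. Without Fmo5-/- mouse 1 the log2 fold change turned to -0.30 for Irs1 and to -0.40 for Irs2, neither called (edgeR adjusted p = 0.259 and 0.378).

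Pik3r1 (chr13:101680563-101768217, minus strand) encodes p85alpha, the regulatory subunit of phosphoinositide 3-kinase. Pik3r1 had normalized counts of 2921, 4359 and 2896 in WT and 2750, 2859 and 3381 in Fmo5-/- mice. WT mouse 2 stood above the other 5, and the other WT mice lay within the Fmo5-/- range. The log2 fold change was -0.18 ± 0.17 (edgeR adjusted p = 0.584) and turned to 0.05 without WT mouse 2. Akt2 (chr7:27591552-27640826, plus strand) encodes the main AKT kinase of insulin action in liver. Its normalized counts were 3993, 4482 and 3630 in WT and 4575, 3629 and 4035 in Fmo5-/- mice, so the ranges almost coincided, with a log2 fold change of 0.02 ± 0.11 (edgeR adjusted p = 0.95) and an interval of 0.85 to 1.2 for the fold.

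Foxo1 (chr3:52268336-52353221, plus strand), the transcription factor that AKT2 restrains, had the smallest spread of the 10 genes by edgeR's estimate. Foxo1 had normalized counts of 1067, 1196 and 1082 in WT mice and 1099, 1092 and 1085 in Fmo5-/- mice, and the 3 Fmo5-/- values differed by 0.659% of their mean (SD). This is closer than the 9.34% that edgeR estimated as the spread of this gene between mice, itself above only 4.48% of tested genes. Foxo1 shares 7.78% of its exon bases with Gm20402 on the opposite strand, and by the summed strand columns its Fmo5-/- values were less close, at 2.91, 2.72 and 2.74 RPKM. The log2 fold change was -0.03 ± 0.078 (edgeR adjusted p = 0.864) and the interval of the fold was 0.866 to 1.11. Foxo1 lies on the chromosome of Fmo5, 45.28 Mb away.

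**Figure D2:**
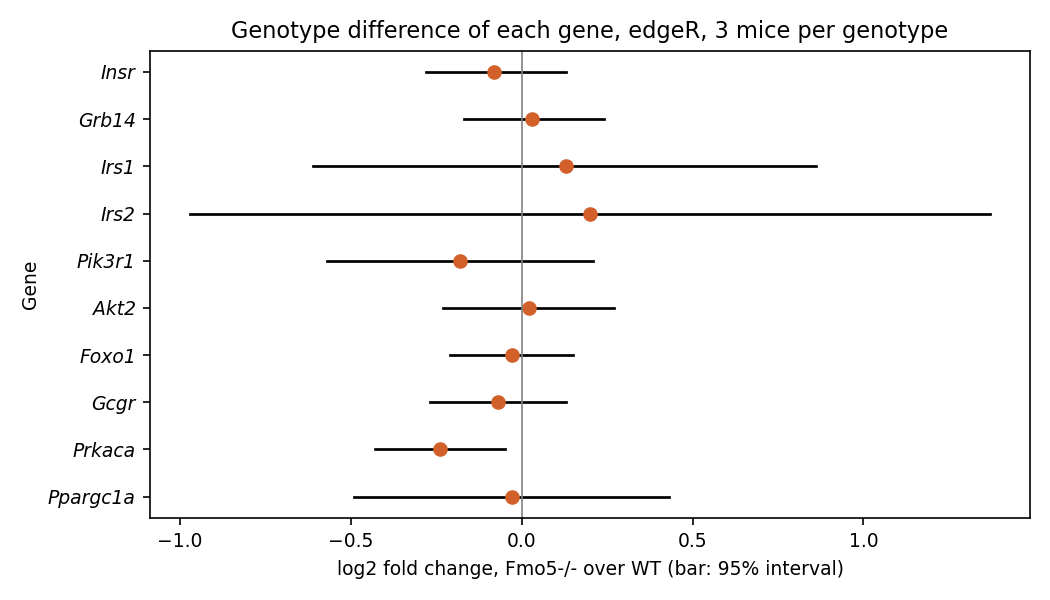
Log2 fold change, Fmo5-/- over WT, of each gene (dot) with its 95% interval (bar), from edgeR on 3 mice per genotype. The interval of Prkaca, -0.43 to -0.05, lies below 0, the other 9 include 0, and those of Irs1 and Irs2 are the widest.

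Gcgr (chr11:120530699-120538986, plus strand) encodes the glucagon receptor. Gcgr had normalized counts of 16420, 17490 and 16900 in WT and 14900, 16520 and 16910 in Fmo5-/- mice. Fmo5-/- mouse 1 lay below the WT range and the others within it. The log2 fold change was -0.07 ± 0.088 (edgeR adjusted p = 0.681), with an interval of 0.829 to 1.09 for the fold. Ppargc1a (chr5:51454250-51567726, minus strand) encodes PGC-1alpha. Its normalized counts were 363.2, 247.7 and 452.9 in WT and 328.8, 391.9 and 322 in Fmo5-/- mice, the latter all inside the WT range. It was the only gene of the 10 with a mean under 500. The log2 fold change was -0.03 ± 0.2 (edgeR adjusted p = 0.949), and the interval of the fold was 0.71 to 1.35.

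Prkaca (chr8:83972993-83996443, plus strand) encodes the catalytic subunit alpha of protein kinase A. Its normalized counts were 2639, 2495 and 2491 in WT mice and 2322, 1962 and 2179 in Fmo5-/- mice. All 3 Fmo5-/- mice lay below all 3 WT mice, which holds in either direction for 27.4% of the 16734 genes tested. The log2 fold change was -0.24 ± 0.085, with an interval of 0.743 to 0.968 for the fold. Prkaca was not called, since adjustment over all genes raised its edgeR p-value from 0.0199 to an adjusted p = 0.149 (DESeq2 adjusted p = 0.138). Prkaca had the lower mean in Fmo5-/- mice under each of the 12 other settings tried, with adjusted p between 0.11 and 0.397.

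**Figure D3:**
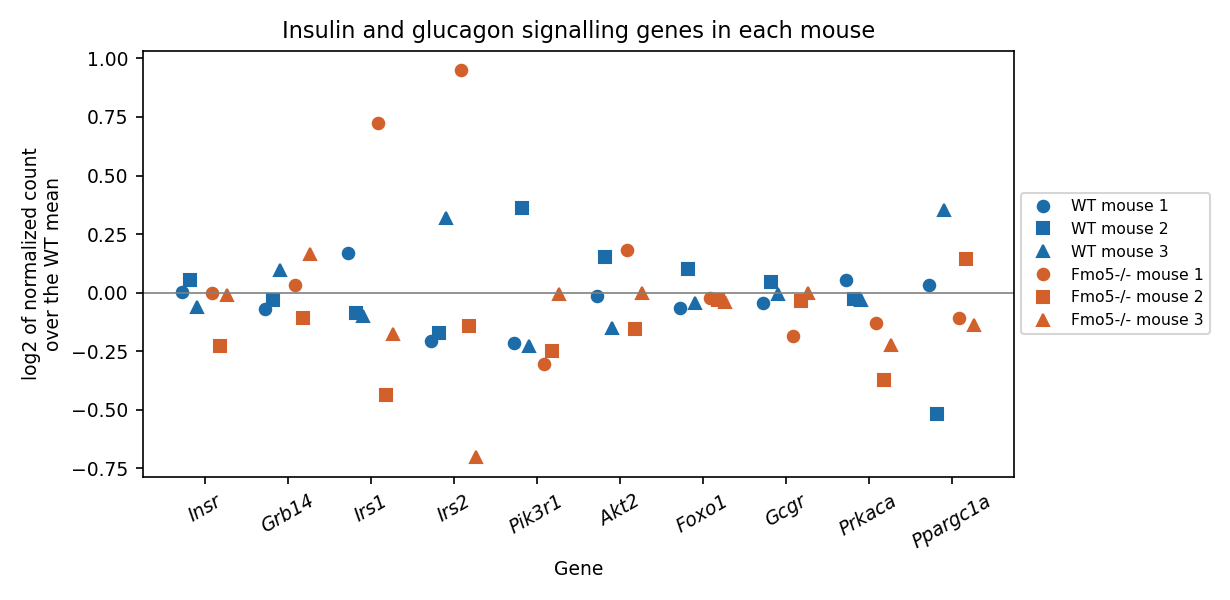
Normalized count of each gene in each mouse as log2 of its ratio to the WT mean (line at 0), WT in blue and Fmo5-/- in orange, with 1 symbol per mouse. Fmo5-/- mouse 1 stands above the others for Irs1 and Irs2, and the orange points of Prkaca all lie below the blue ones.

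Across the 10 genes, edgeR called 0 at an adjusted p under 0.05, while it called 229 of all 16734 tested genes (1.37%), 113 higher (0.675%) and 116 lower (0.693%) in Fmo5-/- mice. DESeq2 called 0 of the 10, against 1395 of 15571 genes (8.96%). At an unadjusted p under 0.05, edgeR had 1 of the 10, Prkaca, against 21.8% of all genes. The mean was higher in Fmo5-/- mice for 4 of the genes and lower for 6. Their median log2 fold change was -0.03, beside 0.01 for all tested genes. The median size of the difference, regardless of direction, was 0.07, beside 0.13 for genes with a mean of 500 or more, a limit that 9 of the 10 reach. Fmo5-/- mouse 2 had the lowest value of the 6 mice for 5 of the genes, Insr, Irs1, Akt2, Grb14 and Prkaca (50%), beside 22.3% of all tested genes. That share was not computed for genes with a mean of 500 or more alone.

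Ratios between members of a pathway within a mouse do not depend on library scaling. The Irs2 to Irs1 count ratio was 0.774, 0.945 and 1.34 in WT and 1.17, 1.23 and 0.697 in Fmo5-/- mice, so the genotypes overlapped. Both genes were highest in Fmo5-/- mouse 1, whose ratio lay inside the WT range. Grb14 to Insr, inhibitor to receptor, was 0.483, 0.479 and 0.567 in WT and 0.52, 0.552 and 0.574 in Fmo5-/- mice. Gcgr to Insr was 2.52, 2.59 and 2.71 in WT and 2.29, 2.98 and 2.62 in Fmo5-/- mice. Ppargc1a to Foxo1 was 0.34, 0.207 and 0.419 in WT and 0.299, 0.359 and 0.297 in Fmo5-/- mice. The mean log2 differences were 0.01, 0.11, 0.01 and 0.04, and the exact two-sided permutation p was 1, 0.3, 1 and 0.9 (1 for each after adjustment over the 4 ratios). With 3 mice per genotype this test cannot go below 0.1.

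Close relatives of these genes, added after their values had been seen, show which isoform the liver held. Akt1 had 11.3 ± 1.01 RPKM in WT and 12.7 ± 1.47 RPKM in Fmo5-/- mice, about the level of Akt2. Beside Pik3r1, Pik3r2 had 7.38 ± 0.341 and 8.12 ± 0.738 RPKM. Foxo3 and Foxo4 exceeded Foxo1 in level, Foxo3 with 6.86 ± 0.656 and 5.67 ± 0.849 RPKM and Foxo4 with 10.8 ± 1.11 and 9.56 ± 0.841 RPKM. For protein kinase A, the second catalytic subunit Prkacb had 4.59 ± 0.339 and 4.03 ± 0.394 RPKM. The regulatory subunits Prkar1a (33.6 ± 0.173 and 31.9 ± 2.74 RPKM) and Prkar2a (13.8 ± 1.25 and 12.3 ± 0.911 RPKM) were the other abundant parts of the kinase. EdgeR called none of these 7 genes (adjusted p between 0.227 for Foxo3 and 0.668 for Prkar1a), nor did DESeq2, and only Foxo3 had an unadjusted edgeR p under 0.05. Of all genes, 1.37%, 8.96% and 21.8% met these 3 measures.

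Of 53 other genes of the insulin pathway, 52 were tested (Irs4 was not). EdgeR called 0 higher and 1 lower in Fmo5-/- mice, DESeq2 called 2 higher and 3 lower, and 15 had an unadjusted edgeR p under 0.05 (1.37%, 8.96% and 21.8% of all genes for the same 3 measures, both directions together). The mean was higher for 19 and lower for 33, and the median log2 fold change was -0.07. A mean of 500 or more was reached by 41 of the 52. The gene called was Ide, insulin-degrading enzyme, which clears insulin inside the cell. Its normalized counts were 6735, 7773 and 8429 in WT mice and 4091, 3745 and 3712 in Fmo5-/- mice, well apart. It fell by 0.99 ± 0.1 on the log2 scale (edgeR adjusted p = 0.00391) and was called in all 12 other settings.

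Other genes of this list chosen by size did not pass edgeR's threshold. Ptpn1, the phosphatase that switches the insulin receptor off, had normalized counts of 1263, 1345 and 1180 in WT and 1766, 1562 and 1361 in Fmo5-/- mice (log2 fold change 0.31, edgeR adjusted p = 0.14). Foxo3 had a log2 fold change of -0.28 (edgeR adjusted p = 0.227).

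Of 49 other genes of glucagon, cyclic AMP, CREB and PGC-1alpha signalling, all tested, edgeR called 1 higher and 1 lower, as did DESeq2, and 13 had an unadjusted edgeR p under 0.05 (1.37%, 8.96% and 21.8% of all genes). The mean was higher for 30 and lower for 19, and the median log2 fold change was 0.08. Mme, neprilysin, a membrane peptidase that degrades glucagon among other peptides, had normalized counts of 3318, 2827 and 2006 in WT mice and 188.2, 92.71 and 98.18 in Fmo5-/- mice. It fell by 4.42 ± 0.35 on the log2 scale (edgeR adjusted p = 0.00871) and was called in all 12 other settings. Mme lies on the chromosome of Fmo5, 34.24 Mb away, and the part of that position in the result was not tested.

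Adcy7, an adenylyl cyclase, had normalized counts of 229.8, 246.6 and 221.9 in WT and 453.7, 641.6 and 362.3 in Fmo5-/- mice, a rise of 1.06 ± 0.2 (log2, edgeR adjusted p = 0.0459). When 1 mouse was left out it was called only without Fmo5-/- mouse 3 (adjusted p between 0.00632 and 0.132 over the 6 fits). The 8 Kupffer cell markers, summing to 185 to 221 CPM in WT and 290 to 532 CPM in Fmo5-/- mice, moved with it. So did T-cell markers among the 6 lymphocyte markers, named after their values had been seen, which were highest, like Adcy7, in Fmo5-/- mouse 2: Cd8a had 22.24, 7.811 and 14.31 normalized counts in WT and 86.63, 321.3 and 61.85 in Fmo5-/- mice, and Cd3e had 22.24, 24.55 and 24.54 in WT and 43.78, 113.8 and 35.34 in Fmo5-/- mice. DESeq2 called these 2 of the 6 higher and edgeR called 0, with 3 at an unadjusted edgeR p under 0.05 (8.96%, 1.37% and 21.8% of all genes). Another T-cell marker of the list, Cd3g, also named after its values had been seen, was not called by DESeq2 (adjusted p = 0.143). Cd3g had 62.48, 26.78 and 15.34 in WT and 97.81, 224.9 and 54 in Fmo5-/- mice, so its genotypes overlapped. The sum of the list, most of it Ighm, was 14.9 to 45.3 CPM in WT and 25.3 to 36.7 CPM in Fmo5-/- mice. The Kupffer cell sum was highest in Fmo5-/- mouse 1, at 532.4 CPM against 506 CPM in mouse 2. The 2 neutrophil markers tested, S100a8 and S100a9, were also higher, and are named after their values had been seen. S100a8 had 45.54, 21.2 and 16.36 normalized counts in WT and 52.17, 105.6 and 46.14 in Fmo5-/- mice. Of these 2, DESeq2 called 1 and edgeR 0 (8.96% and 1.37% of all genes). The part of any of these cell types in the result was not tested. The same markers moved with the catalytic subunit Pik3cd of the insulin list, which was chosen after its values had been seen. It had 255.2, 224.3 and 212.7 normalized counts in WT and 568.3, 755.4 and 357.4 in Fmo5-/- mice (log2 fold change 1.28), and was called by DESeq2 (adjusted p = 1.11e-05) but not by edgeR (adjusted p = 0.0554). Adcy9 (another adenylyl cyclase), Crtc3 (a coactivator of CREB) and Sik3 (a kinase that restrains such coactivators) had log2 fold changes of 0.30, 0.27 and 0.26 and were not called by edgeR (adjusted p = 0.11, 0.135 and 0.109).

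Of 26 liver genes commonly taken as outputs of insulin, FOXO1, CREB or PGC-1alpha, all tested, edgeR called 0 higher and 2 lower, DESeq2 called 1 higher and 5 lower, and 10 had an unadjusted edgeR p under 0.05 (1.37%, 8.96% and 21.8% of all genes). The mean was higher for 5 and lower for 21, and the median log2 fold change was -0.32. Fmo5-/- mouse 2 had the lowest value of the 6 mice for 15 of the 26 (57.7%), beside 22.3% of all tested genes. That mouse was also the lowest for 26 of the 52 insulin pathway genes (50%). A mean of 500 or more was reached by 24 of the 26 output genes, against 7819 of all 16734 tested genes. The median and the share of lowest values were not computed for genes of such means alone. Trib1, a pseudokinase that limits lipogenesis, had normalized counts of 2621, 2474 and 2304 in WT and 1552, 1741 and 1796 in Fmo5-/- mice and fell by 0.54 ± 0.088 on the log2 scale (edgeR adjusted p = 0.0293). Mttp, which loads lipid onto apolipoprotein B, had 16670, 17940 and 15560 in WT and 12650, 9820 and 10860 in Fmo5-/- mice and fell by 0.59 ± 0.11 (edgeR adjusted p = 0.0468).

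Both edgeR calls were near the threshold. Of the 6 edgeR fits that left out 1 mouse, Trib1 was called in 2, those without WT mouse 3 or Fmo5-/- mouse 3, and Mttp in 0 (lowest adjusted p = 0.0543). DESeq2 called both (adjusted p = 0.000103 and 0.000107). Mttp also lies on the chromosome of Fmo5, 40.43 Mb away, and the part of that position was not tested. Slc37a4, the glucose-6-phosphate transporter, had a log2 fold change of -0.45 (edgeR adjusted p = 0.186), and Got1, an aspartate aminotransferase, one of 0.43 (edgeR adjusted p = 0.12, DESeq2 adjusted p = 0.0489). The other DESeq2 calls of this list beside Trib1 and Mttp were lower in Fmo5-/- mice, Gys2, Gadd45a and Apoc3 (DESeq2 adjusted p = 0.0155, 0.0155 and 0.0309), named after their values had been seen.

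**Figure D4:**
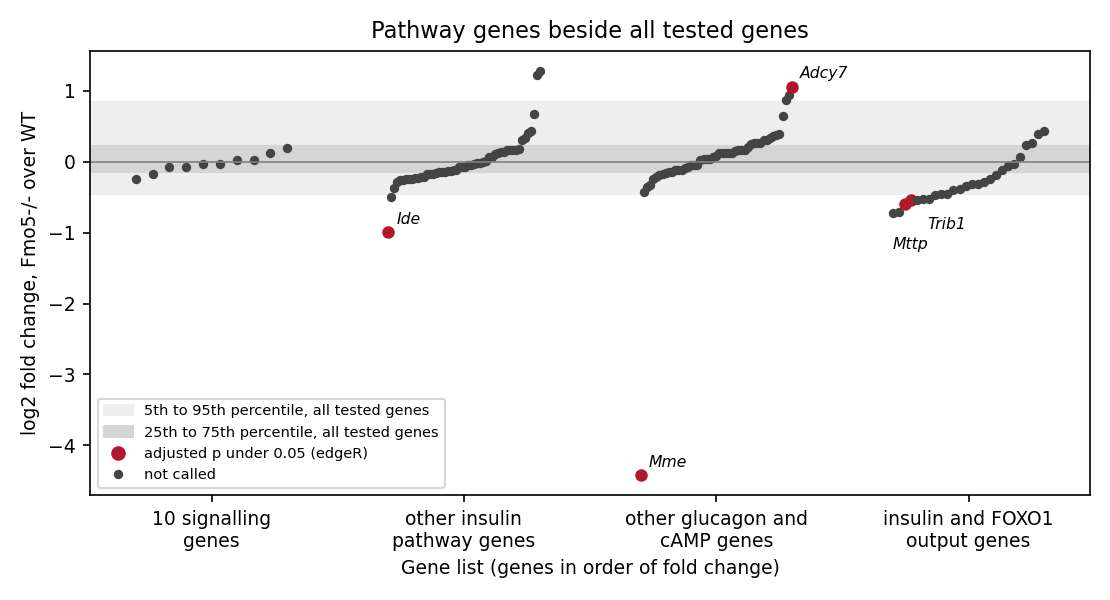
Log2 fold change, Fmo5-/- over WT, of the 10 signalling genes and of the 3 lists, genes in order of size within a list, with bands for the 25th to 75th and 5th to 95th percentile of all tested genes. Red points are called by edgeR. The 10 genes lie between -0.24 and 0.20, and the called genes are Ide, Mme, Adcy7, Trib1 and Mttp.

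Some hormone-regulated genes shared their highest mouse with Irs1 and Irs2, while the lowest mouse differed among them. They were picked from the lists after their values had been seen, so they are a description only. Igfbp1, a FOXO1 target that insulin represses, had normalized counts of 2116, 737.6 and 2708 in WT and 4458, 1463 and 724.5 in Fmo5-/- mice. Pck1, the rate-limiting enzyme of gluconeogenesis, had 25040, 45980 and 31630 in WT and 68730, 40950 and 24710 in Fmo5-/- mice. Sik1, a kinase induced by CREB, had 487.2, 425.1 and 1119 in WT and 1798, 682 and 703.9 in Fmo5-/- mice. In each of the 3, as in Irs1 and Irs2, Fmo5-/- mouse 1 was the highest of the 6.

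G6pc, glucose-6-phosphatase, was also highest in that mouse, at 28310 against 12530 to 20750 in the other 5. None of these 4 genes was called by edgeR (adjusted p between 0.599 for Sik1 and 0.897 for Igfbp1) or by DESeq2, and none had an unadjusted edgeR p under 0.05 (1.37%, 8.96% and 21.8% of all genes). Over the whole output list Fmo5-/- mouse 1 was the highest of the 6 mice for 5 of 26 genes (19.2%), beside 15.7% of all tested genes. Over the glucagon and cyclic AMP list, which holds Sik1, that mouse was the highest for 15 of 49 (30.6%).

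**Figure D5:**
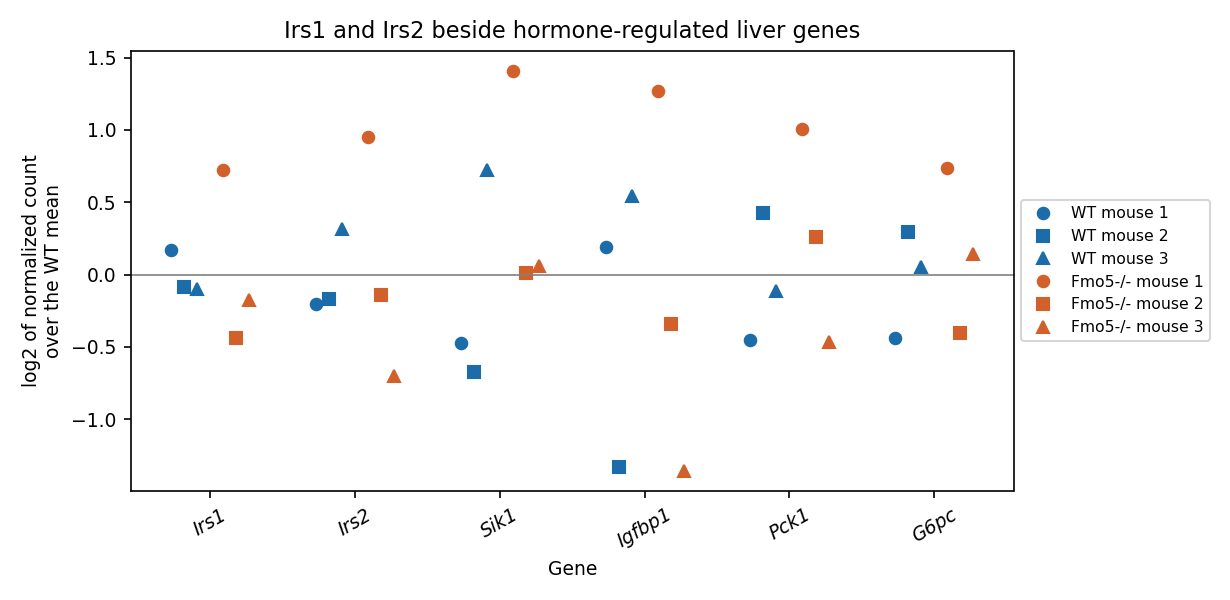
Normalized count as log2 of its ratio to the WT mean (line at 0) in each mouse for Irs1 and Irs2 and for 4 hormone-regulated genes, WT in blue and Fmo5-/- in orange. Fmo5-/- mouse 1, the orange circle, is the highest for all 6 genes plotted.

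The mice had free access to food and were sampled over a morning, and the genes of the circadian clock differed between mice. WT mouse 2 lay outside the range of the other 5 mice in most of them. The clock genes named here were picked after their values had been seen. In that mouse Dbp had 1772 normalized counts against 324 to 817.8 in the other 5, and Arntl had 496.6 against 948.4 to 1347. Npas2 had 63.6 against 191.4 to 383.4, and Per3 had 835.8 against 260.7 to 475.2. In Clock and Bhlhe41 the mouse lay within the range of the other 5. WT mouse 2 is also the WT mouse with the highest Pik3r1 (4359) and the lowest Ppargc1a (247.7). Of the 16 clock genes tested, edgeR and DESeq2 called 0, and 2 had an unadjusted edgeR p under 0.05 (1.37%, 8.96% and 21.8% of all genes). The mean was higher in Fmo5-/- mice for 3 of the 16 and lower for 13. Their median log2 fold change was -0.27, beside 0.01 for all tested genes. A mean of 500 or more was reached by 11 of the 16. The part of the clock in the spread of Pik3r1 and Ppargc1a was not tested.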

How the data were processed

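The authors sequenced mRNA libraries with single reads, clipped adapters, and used STAR 2.6.0c both to align the reads to mm10 and to count them per gene. The release of the annotation is not given in the sources used here. They deposited raw counts of both strands and of each strand. The signal columns of their deposited comparison table are these counts divided by 1 size factor per library, checked here to within 0.0048%. That table also holds the authors' fold changes and p-values, which were not used.

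Here the counts of both strands were tested with edgeR 4.0.16 in R 4.3.3: filterByExpr (minimum count 10), TMM, robust quasi-likelihood test of genotype, two-sided, and Benjamini-Hochberg adjustment over 16734 genes. A gene was called at an adjusted p under 0.05. Between 66.2% and 69.2% of reads were on genes, and the rest stayed out. A gene with no count could have up to 3 counts, 0.0564 to 0.0686 CPM, and this covers counting error only. Each library has its own number in its title and was taken as 1 mouse, so p-values set a genotype difference against the spread between mice. Positions, exon lengths and overlaps are from GENCODE vM21, which holds 54409 of the 54446 identifiers.

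The members and the gene lists were chosen with earlier results of these data known. Named from each list were genes called by edgeR and the 4 with the largest fold change whose genotypes did not overlap and whose mean reached 500. From the marker and clock lists, the called gene with the largest fold change and defining markers at 0 were named. Genes added after their values had been seen are marked as such. Some genes that the rule names are not reported here. Alternatives were DESeq2 1.42.0, RLE scaling, scaling without the 20 most abundant genes, no filter, a mean of 500 or more before the fit, counts of 1 strand, and leaving out each mouse. The edgeR and DESeq2 fits were tested on simulated counts, drawn with the spread typical of each count level and not each gene's own. The ratios, the levels per length and the promoter search were not simulated.

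The marker lists summed, in WT and Fmo5-/- mice, to 236 to 284 and 241 to 347 CPM for stellate cells, 196 to 231 and 200 to 203 for sinusoidal endothelial cells, 36.3 to 67.6 and 45 to 53.7 for cholangiocytes, 0.733 to 2.28 and 2.33 to 4.74 for neutrophils, 9.3 to 21.6 and 0.865 to 2.88 for adipocytes (of which Cfd alone passed the filter), 27.5 to 34.1 and 33.4 to 44.4 for pancreas (nearly all Cela1), and at most 0.132 for skeletal muscle.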

Additional observations from a re-analysis of the deposited data

How the results depend on the processing

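None of the 10 signalling genes was called in the 12 alternatives, 11 for Ppargc1a, which the limit of 500 removed. Insr, Gcgr and Prkaca kept a lower mean in Fmo5-/- mice in all 12. The others changed sign in at least 1, with sizes within their intervals: leaving out each mouse in turn gave -0.30 to 0.34 for Irs1, -0.40 to 0.50 for Irs2, -0.08 to 0.10 for Akt2, -0.05 to 0.03 for Foxo1, -0.28 to 0.05 for Pik3r1, -0.04 to 0.10 for Grb14 and -0.23 to 0.19 for Ppargc1a. DESeq2 gave a log2 fold change of 0 (below 0 before rounding) for Akt2, and the limit of 500 gave 0.04 for Foxo1. That limit also moved up the other members that reach it. Insr went from -0.08 to -0.01, Grb14 from 0.03 to 0.10 and Prkaca from -0.24 to -0.18. The ratios ranged, without each mouse, from -0.17 to 0.27 for Irs2 to Irs1, from -0.09 to 0.10 for Gcgr to Insr and from -0.25 to 0.26 for Ppargc1a to Foxo1, the last being -0.01 with the counts of 1 strand. The level of Irs2 over Irs1 per length was 0.53 (log2) by the counts of both strands and -0.51 by the summed strand columns. The cause of these changes was not tested.

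Over all genes, 229 were called, 1395 by DESeq2, 1989 with no filter, 53 with the limit of 500, and 31 to 763 when 1 mouse was left out, lowest without Fmo5-/- mouse 1 and highest without Fmo5-/- mouse 3. The insulin list had 1 call, 5 by DESeq2, 5 with no filter and 1 to 2 without a mouse. The glucagon list had 2 calls, 5 with no filter, 1 with the limit of 500 and 1 to 2 without a mouse. The output list had 2 calls, 6 by DESeq2, 9 with no filter, 0 with the limit of 500 and 0 to 3 without a mouse. The median of all genes stayed between -0.01 and 0.022. No paired analysis was possible because the labels give no shared replicate numbers.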
